A study of Mus musculus with 16 samples.

Results

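In mouse liver RNA, 4 of 51024 listed transcripts lay inside a stretch of nuclear chromosome 1 that is a copy of mitochondrial DNA. They were chosen by position, as every listed transcript whose interval falls within that insertion on the GRCm38 build. No measured value entered this rule, though it was set with earlier results of these data known. All 4 carry NONCODE identifiers, each is listed as a single interval, and together they cover 1740 bases. Their values are FPKM (fragments per kilobase of transcript, scaled to mapped reads), 1 value per transcript and library. Livers came from C57BL/6J mice, with 16 libraries in 4 groups of 4. Mice of the first group ate ordinary feed, and those of the other 3 a high-fat diet, alone, with resveratrol (100 mg/kg) or with metformin (200 mg/kg), both drugs gavaged daily. All groups share the strain, the tissue and an age label of postnatal day 21, and the labels do not say whether tissue was taken or feeding began then. Resveratrol is a polyphenol found in grapes, and metformin is used against type 2 diabetes.

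Fragments of mitochondrial DNA that have entered the nuclear chromosomes are called nuclear mitochondrial segments. They usually decay into pseudogenes, since the nuclear and mitochondrial genetic codes differ, whereas a young segment can still be identical to its source. Mitochondrial DNA itself is transcribed as long RNAs that are cut, mostly at transfer RNAs, into messengers for subunits of the respiratory chain, which are abundant in liver. Among these, mt-Co1 and mt-Co2 encode the catalytic subunits of cytochrome c oxidase, mt-Co3 a further subunit of that enzyme, mt-Atp6 the proton channel of ATP synthase, and mt-Nd3, mt-Nd4 and mt-Nd4l subunits of NADH dehydrogenase.

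The annotation (GENCODE M21, GRCm38) places 7 unprocessed pseudogenes on the minus strand of the insertion, at chr1:24611535-24616197. They are Gm29216 (a copy of mt-Co1), Gm28661 (mt-Co2), Gm10925 (mt-Atp6), Gm28437 (mt-Co3), Gm28438 (mt-Nd3), Gm10222 (mt-Nd4l) and Gm28439 (mt-Nd4), in the order of the mitochondrial genome. Aligned to their mitochondrial genes they matched over 4137 bases with 1 mismatch, and 6 of the 7 copies had none in their aligned bases. The mismatch was A1066T in Gm29216 (the mitochondrial base, its position counted from 1 at the start of the mitochondrial gene, then the base of the copy). Outside the alignments, 3 bases at the start of Gm28438 held 1 difference, T3C, and 9 at the start of Gm29216 held 5. The copies of mt-Nd4 and mt-Nd4l were also shifted by 1 base against the other 5, so that the spacing before them differs from that of the mitochondrial genome. Copies differ in how much of the gene they hold: Gm29216 matched 31.3% of mt-Co1, Gm28439 63.6% of mt-Nd4, and the other 5 at least 98.3% of theirs.

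The sequences below are shown because they equal the mitochondrial genome base for base where they could be compared. They are the short listed transcripts, read on the minus strand of chromosome 1 from the GENCODE transcripts of the pseudogenes: NONMMUT000380.2 (chr1:24615710-24615972, whole), NONMMUT000377.2 (chr1:24614885-24615092, all but 6 bases outside the pseudogene) and NONMMUT000375.2 (chr1:24613974-24614273, 300 of its 367 bases). No letter is in capitals, because no compared base differed from the mitochondrial genome.
NONMMUT000380.2: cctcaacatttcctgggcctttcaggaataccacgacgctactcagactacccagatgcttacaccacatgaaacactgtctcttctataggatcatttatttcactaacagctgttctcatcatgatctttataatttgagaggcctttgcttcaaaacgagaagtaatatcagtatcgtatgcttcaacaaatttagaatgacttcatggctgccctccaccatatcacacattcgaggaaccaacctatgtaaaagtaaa
NONMMUT000377.2: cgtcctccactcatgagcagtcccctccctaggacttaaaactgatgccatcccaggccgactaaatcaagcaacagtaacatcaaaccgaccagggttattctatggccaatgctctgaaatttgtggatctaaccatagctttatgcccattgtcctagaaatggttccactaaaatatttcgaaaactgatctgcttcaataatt
NONMMUT000375.2: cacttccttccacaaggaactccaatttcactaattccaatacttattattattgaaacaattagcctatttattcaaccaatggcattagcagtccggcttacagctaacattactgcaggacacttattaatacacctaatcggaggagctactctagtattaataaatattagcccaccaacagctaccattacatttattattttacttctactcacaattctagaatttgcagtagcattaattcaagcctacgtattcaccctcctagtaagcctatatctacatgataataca

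Most of the differences lie at the start of Gm29216, the edge of the annotated copies, shown here (chr1:24616138-24616197, minus strand, against chrM:6381-6440). Capitals mark the 6 positions at which the copy and mt-Co1 differ.
Gm29216 start: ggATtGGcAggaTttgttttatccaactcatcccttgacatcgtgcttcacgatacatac
mt-Co1 at the same place: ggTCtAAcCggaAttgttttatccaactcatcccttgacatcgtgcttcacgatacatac

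NONMMUT000380.2 lies in Gm29216 and corresponds to chrM:6606-6868 in mt-Co1, and all 263 of its bases were identical. NONMMUT000377.2 (chr1:24614879-24615092, 214 bases) lies almost wholly in Gm28661 and corresponds to chrM:7486-7699, of which 211 bases are in mt-Co2. All 208 bases that could be compared were identical. NONMMUT000375.2 (chr1:24613966-24614332, 367 bases) lies in Gm10925 and reaches into Gm28437, and corresponds to chrM:8246-8612, of which 362 bases are in mt-Atp6 and 6 in mt-Co3. All 365 compared bases were identical. The low-coordinate edge of each of these 3 short transcripts fell within 5 bases of the end of a mitochondrial gene. It lay 4 bases before that of mt-Co1, 3 bases after that of mt-Co2 and 5 bases after that of mt-Atp6. No strand is listed for the transcripts, so this edge is their end only if they are read on the minus strand, as the pseudogenes are.

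NONMMUT077486.1 (chr1:24614885-24616251, 1367 bases) differs in kind: it runs across Gm29216 and Gm28661 and past the edge of the annotated copies. Of its bases 1173 could be compared, and the 6 mismatches are those at the edge printed above. It contains all of NONMMUT000380.2 and 208 bases of NONMMUT000377.2, so a read in the shared bases lies inside more than 1 listed interval. No listed transcript lay over the copies of mt-Nd3, mt-Nd4l or mt-Nd4, and the copy of mt-Co3 was reached by 6 bases alone. No transcript of the mitochondrial chromosome itself is listed, so levels of mitochondrial messengers were not measured beside those of the copy. How the authors assigned reads that match both places was not stated.

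**Figure D1:**
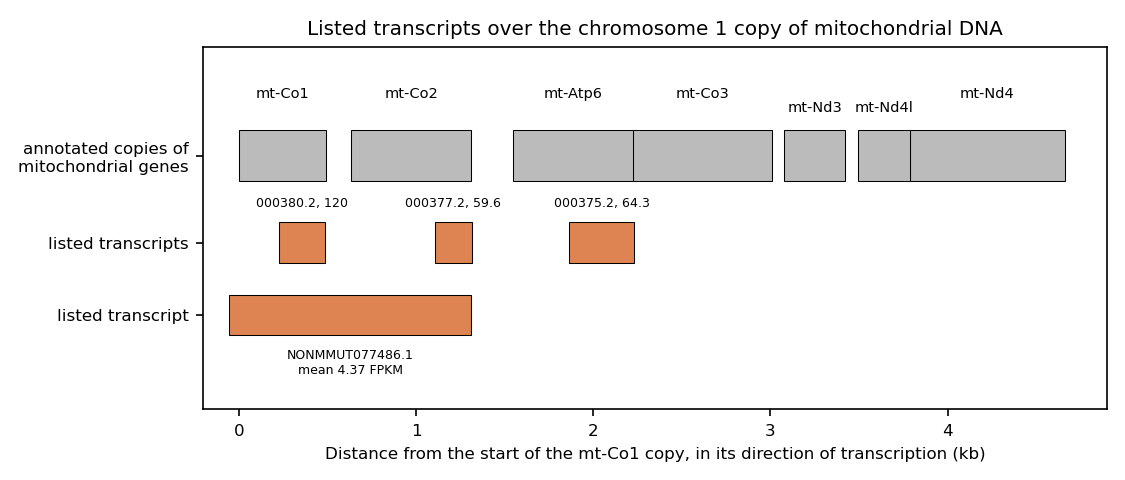
The horizontal axis is the distance in kb from the start of the mt-Co1 copy, in its direction of transcription; grey boxes are the 7 annotated copies, named by their mitochondrial gene, and orange boxes the 4 listed transcripts with their mean FPKM over 16 libraries. The right-hand edge of each of the 3 short transcripts (120, 59.6 and 64.3 FPKM) lies within 5 bases of the end of a gene, and the long one (4.37 FPKM) spans the first 2 copies.

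FPKM values were whole multiples of 1 step per library once multiplied by transcript length (at least 99.997% of values above 0, within 0.05 of a read), which gave library totals of 17.2 to 31.1 M reads. Among them, high-fat library 4 stood apart. The ribosomal RNA locus made up 22.6% of its listed reads and 8.80 to 16.1% of those of the other 15 libraries. Its scaling factor by the median of ratios was 0.754 (0.896 to 1.10 in the rest), and 4286 transcripts reached 1 FPKM there against 5169 to 6505. Its part in the differences below was not tested, and results that rest on it are given with and without it. Titles of the 4 samples fed high fat alone begin alike, for a reason not given, and whatever that marks cannot be told apart from the group. In bulk tissue, fewer cells of a type and less RNA per cell cannot be told apart either.

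NONMMUT000380.2, the transcript in the mt-Co1 copy, was the most abundant of the 4, at a mean of 120 FPKM over 16 libraries and rank 29 of the 51024 listed transcripts by mean FPKM. On ordinary feed libraries 1 to 4 had 114, 81.7, 122 and 142 FPKM, and on high-fat feed 136, 129, 102 and 49.2. With resveratrol the values were 115, 95.2, 148 and 183 FPKM, and with metformin 137, 107, 141 and 124. High-fat library 4 was the lowest of all 16 and resveratrol library 4 the highest, and the 4 groups overlapped. Group means were 115 ± 25.1 FPKM on ordinary feed, 104 ± 39.3 on high fat, 135 ± 38.6 with resveratrol and 127 ± 15.4 with metformin (n = 4 each, SD). Without library 4 the high-fat mean was 122 ± 17.8 FPKM (n = 3). Between 284 and 1104 reads stood behind each value.

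NONMMUT000377.2, in the mt-Co2 copy, had a mean of 59.6 FPKM and rank 49. Libraries 1 to 4 had 54.2, 49.2, 61.9 and 59.2 FPKM on ordinary feed and 70.5, 58.7, 62.0 and 25.8 on high fat. They had 62.1, 66.9, 69.6 and 94.1 FPKM with resveratrol and 60.8, 53.3, 63.8 and 41.2 with metformin. The lowest was again high-fat library 4 and resveratrol library 4 highest. The 4 resveratrol values all lay above the 4 of ordinary feed, though by a narrow gap, and no other pair of groups was separate for any of the 4 transcripts. Of all 7455 tested transcripts 9.95% had groups that do not overlap in that comparison. In the others 0 of the 4 were separate, against 21% for high fat and ordinary feed, 7.94% for resveratrol and high fat, 3.51% for metformin and high fat, 4.72% for the drugs and 13.4% for metformin and ordinary feed. Group means were 56.1 ± 5.61 FPKM on ordinary feed, 54.2 ± 19.6 on high fat (63.7 ± 6.09 without library 4, n = 3), 73.1 ± 14.3 with resveratrol and 54.8 ± 10.1 for metformin (n = 4 each unless stated, errors are SD).

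NONMMUT000375.2, in the mt-Atp6 copy, had a mean of 64.3 FPKM and rank 44. On ordinary feed libraries 1 to 4 had 52.8, 43.1, 72.9 and 78.9 FPKM, and on high fat 86.7, 64.2, 64.6 and 16.9. With resveratrol they had 74.4, 50.9, 71.7 and 109 FPKM, and with metformin 70.9, 50.7, 73.8 and 47.3. Its high-fat group varied most of the 16 combinations of transcript and group, with a coefficient of variation of 50.6%, which was 17.9% without library 4 (n = 3). Group means were 61.9 ± 16.8 FPKM on ordinary feed, 58.1 ± 29.4 on high fat, 76.5 ± 23.9 with resveratrol and 60.7 ± 13.6 with metformin (n = 4 each, SD). Without library 4 the high-fat mean was 71.8 ± 12.9 FPKM.

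NONMMUT077486.1, the long transcript over the copies of mt-Co1 and mt-Co2, was far lower, with a mean of 4.37 FPKM and rank 1079. Libraries 1 to 4 had 4.67, 3.14, 3.48 and 6.69 FPKM on ordinary feed and 4.65, 2.96, 4.32 and 3.33 on high fat. They had 3.42, 3.78, 5.09 and 6.04 FPKM with resveratrol and 6.87, 4.40, 4.88 and 2.14 with metformin. Here high-fat library 4 lay within its group, and the lowest and highest values were both in the metformin group. Group means were 4.49 ± 1.60 FPKM on ordinary feed, 3.82 ± 0.797 on high fat (3.98 ± 0.894 without library 4, n = 3), 4.58 ± 1.21 with resveratrol and 4.57 ± 1.94 for metformin (n = 4 each unless stated, errors are SD).

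The long transcript was assigned 65 to 221 reads per library, while the pair of short transcripts inside it was assigned 405 to 1565. The pair thus held 4.05 to 14.2 times as many reads (median 7.60) as the transcript whose interval contains nearly all of their bases. Per length, NONMMUT000380.2 had 14.8 to 58.1 times the FPKM of the long transcript, with the lowest ratio in high-fat library 4 and the highest in metformin library 4. NONMMUT000377.2 had 7.73 to 19.8 times its FPKM, again lowest in high-fat library 4. In each library the long transcript had fewer reads than the pair, so it was not assigned every read of the pair. How reads were otherwise shared out between overlapping transcripts is not stated in the labels.

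**Figure D2:**
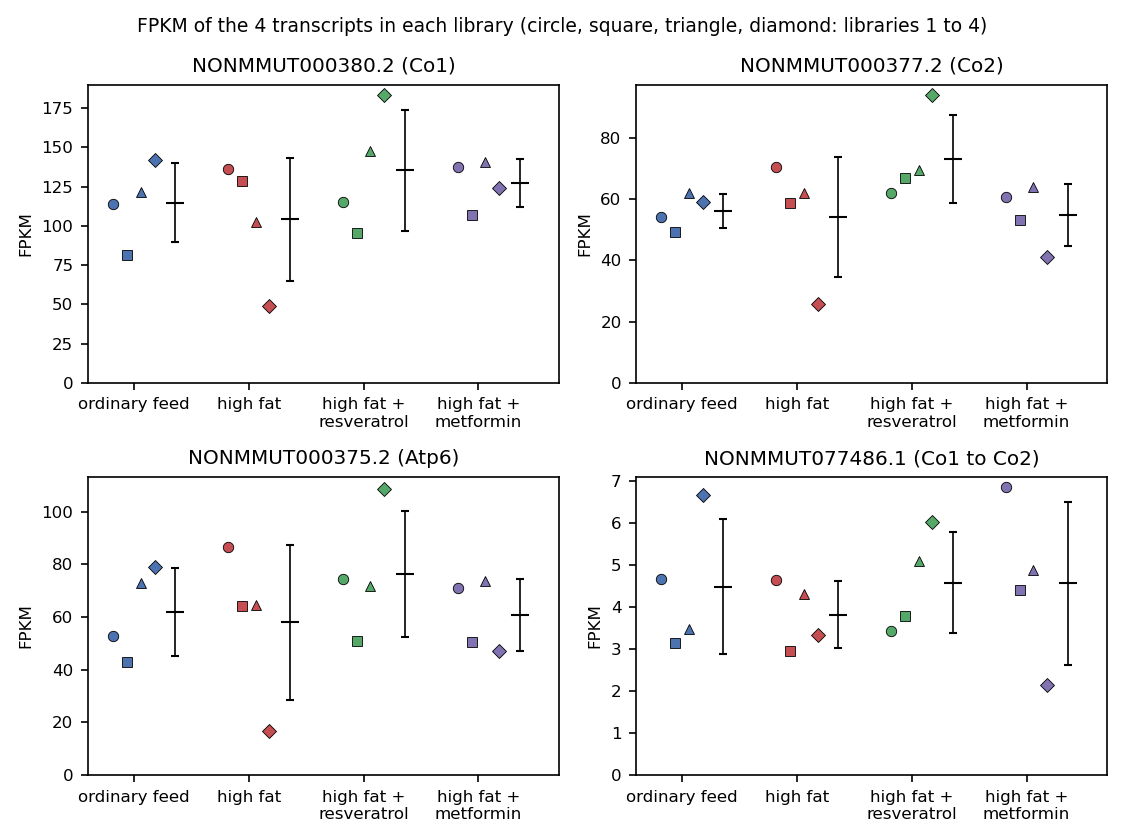
FPKM of each of the 4 transcripts in each library, with marker shapes for libraries 1 to 4 and black bars for the mean ± SD of each group (n = 4). High-fat library 4 (red diamond) is lowest in the 3 short transcripts, at 49.2, 25.8 and 16.9 FPKM, but not in the long one, and the groups overlap except for resveratrol and ordinary feed in NONMMUT000377.2.

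Ratios among the 3 short transcripts had coefficients of variation of 16.9 to 19.1% over the 16 libraries. NONMMUT000380.2 had 1.42 to 3.02 times the FPKM of NONMMUT000377.2 (median 1.99) and 1.55 to 2.91 times that of NONMMUT000375.2 (median 1.90). NONMMUT000375.2 had 0.655 to 1.33 times the FPKM of NONMMUT000377.2 (median 1.12). High-fat library 4 was at an end of the last pair of ranges: NONMMUT000375.2 was the lowest there relative to both others. In metformin library 4 NONMMUT000380.2 was high relative to NONMMUT000377.2, at 3.02.

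Levels of the 4 transcripts were also correlated across the 16 libraries on the log2(FPKM + 1) scale, among themselves and with a copy on chromosome 2 described below, which gave 10 relations. All share the library totals by which FPKM is scaled. NONMMUT000375.2 followed NONMMUT000377.2 (Pearson r = 0.93, Spearman rho = 0.79, adjusted permutation p = 0.0001 and 0.00277) and NONMMUT000380.2 (r = 0.93, rho = 0.76, adjusted permutation p = 0.0001 and 0.00277). Without the 2 libraries farthest from the median, high-fat library 4 and resveratrol library 4, r was 0.73 and 0.74. NONMMUT000377.2 and NONMMUT000380.2 had r = 0.83 and rho = 0.55 (adjusted permutation p = 0.002 and 0.0312), but r = 0.34 without those libraries, so that this relation rests on them. The long transcript had r between 0.48 and 0.52 and rho between 0.51 and 0.64 with the short ones (adjusted permutation p for r between 0.0462 and 0.0591, for rho between 0.0196 and 0.0435). Without high-fat library 4 and resveratrol library 4 its r was 0.53 with NONMMUT000375.2 and 0.54 with NONMMUT000377.2. Both lay below the r of NONMMUT000375.2 with the other short ones and above that of NONMMUT000377.2 and NONMMUT000380.2. With NONMMUT000380.2 the libraries left out were metformin libraries 1 and 4, farthest from the median of the long transcript, and r was 0.62. In 100000 permutations the smallest possible p is 1e-05, reached before adjustment by the relation of NONMMUT000375.2 and NONMMUT000377.2. Within groups, after subtraction of the group means, r among the short transcripts was 0.86 to 0.94. These values include high-fat library 4, which lies far below its group mean. Without it, and with no group means subtracted, r among the short transcripts was 0.58 to 0.82 (n = 15). After median-ratio scaling of all 16 libraries r was 0.76 to 0.90 among the short transcripts and 0.33 to 0.35 between them and the long one. The latter was 0.45 to 0.54 when high-fat library 4 was also left out.

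High fat against ordinary feed compares the diets, together with whatever the shared titles of the high-fat group mark. None of the 4 transcripts passed, against 14.6% of all tested transcripts (1087 of 7455, limma adjusted p under 0.05). On the log2(FPKM + 1) scale NONMMUT000380.2 differed by -0.21 (SE 0.30, 95% interval -0.86 to 0.43, limma adjusted p = 0.649). NONMMUT000377.2 differed by -0.14 (SE 0.27, -0.72 to 0.45, limma adjusted p = 0.759). NONMMUT000375.2 differed by -0.27 (SE 0.41, -1.14 to 0.61, limma adjusted p = 0.680) and NONMMUT077486.1 by -0.16 (SE 0.26, -0.72 to 0.40, limma adjusted p = 0.698). The median of the 4 differences was -0.19, close to the median of all tested transcripts, -0.16. Without high-fat library 4 the 3 short transcripts lay above 0, at 0.11, 0.18 and 0.24 for NONMMUT000380.2, NONMMUT000377.2 and NONMMUT000375.2, and the long one at -0.12 (limma adjusted p between 0.540 and 0.831). Leaving out 1 library thus turned the sign of the 3 short transcripts, and the intervals with all libraries span values on both sides of 0.

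Each drug was compared with high fat alone, and both comparisons share the 4 high-fat libraries. The labels name gavage for the drug groups alone. Drug and gavage therefore cannot be told apart where a drug group is set against high fat alone or ordinary feed. With resveratrol 0 of the 4 transcripts passed, against 0.0805% of all tested (6 of 7455). Differences were 0.43 (SE 0.30, 95% interval -0.21 to 1.08) for NONMMUT000380.2, 0.50 (SE 0.27, -0.082 to 1.08) for NONMMUT000377.2 and 0.56 (SE 0.41, -0.32 to 1.43) for NONMMUT000375.2. The long transcript had 0.20 (SE 0.26, -0.36 to 0.77), and limma adjusted p ran from 0.373 to 0.712. The median of the 4 was 0.47, against 0.13 for all tested transcripts. Without high-fat library 4 the differences were 0.11, 0.18, 0.052 and 0.16 in the same order (limma adjusted p between 0.748 and 0.969). Without high-fat library 1 they were larger, at 0.60, 0.65, 0.82 and 0.29, and the interval of NONMMUT000377.2 was 0.048 to 1.26 (limma adjusted p = 0.226).

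With metformin 0 of the 4 passed, against 0.0268% of all tested (2 of 7455). Differences from high fat alone were 0.38 (SE 0.30, 95% interval -0.26 to 1.02) for NONMMUT000380.2 and 0.087 (SE 0.27, -0.49 to 0.67) for NONMMUT000377.2. NONMMUT000375.2 had 0.25 (SE 0.41, -0.63 to 1.13) and NONMMUT077486.1 0.15 (SE 0.26, -0.41 to 0.71), with limma adjusted p between 0.793 and 0.953. Without high-fat library 4, NONMMUT000380.2 was at 0.059, NONMMUT000377.2 at -0.23, NONMMUT000375.2 at -0.25 and NONMMUT077486.1 at 0.11 (limma adjusted p between 0.847 and 0.992).

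Between the drugs, 0 of the 4 transcripts passed and 0% of all tested, though 468 of 7455 had an unadjusted limma p under 0.05. The difference of resveratrol from metformin was 0.41 for NONMMUT000377.2 (SE 0.27, 95% interval -0.17 to 0.99) and 0.30 for NONMMUT000375.2 (SE 0.41, -0.57 to 1.18). It was 0.054 for NONMMUT000380.2 (SE 0.30, -0.59 to 0.70) and 0.052 for NONMMUT077486.1 (SE 0.26, -0.51 to 0.62), with limma adjusted p from 0.805 to 0.990.

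The drug groups were also set against ordinary feed, with the 4 ordinary-feed libraries shared. For resveratrol 0 of the 4 passed, against 0.282% of all tested (21 of 7455). NONMMUT000377.2, whose groups did not overlap, differed by 0.36 (SE 0.27, 95% interval -0.22 to 0.95, limma adjusted p = 0.626). The others differed by 0.22 (NONMMUT000380.2), 0.29 (NONMMUT000375.2) and 0.042 (NONMMUT077486.1), with limma adjusted p between 0.818 and 0.973. For metformin 0 of the 4 passed, against 0.295% of all tested (22 of 7455), and differences ran from -0.048 for NONMMUT000377.2 to 0.17 for NONMMUT000380.2 (limma adjusted p between 0.805 and 0.991). Over the 6 comparisons the lowest unadjusted limma p of the 4 transcripts was 0.0872, so that 0 of 24 were under 0.05, and limma was the only tool run. Of all tested transcripts, 32.2% had an unadjusted p under 0.05 for high fat against ordinary feed, 16.3% for resveratrol and 7.55% for metformin against high fat, 6.28% between the drugs, and 13.2% and 19.96% for resveratrol and metformin against ordinary feed. Of 348 refits under alternatives 2 were under 0.05, both for NONMMUT000377.2: resveratrol against ordinary feed with 2 groups at a time (limma adjusted p = 0.340) and against high fat without high-fat library 1.

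**Figure D3:**
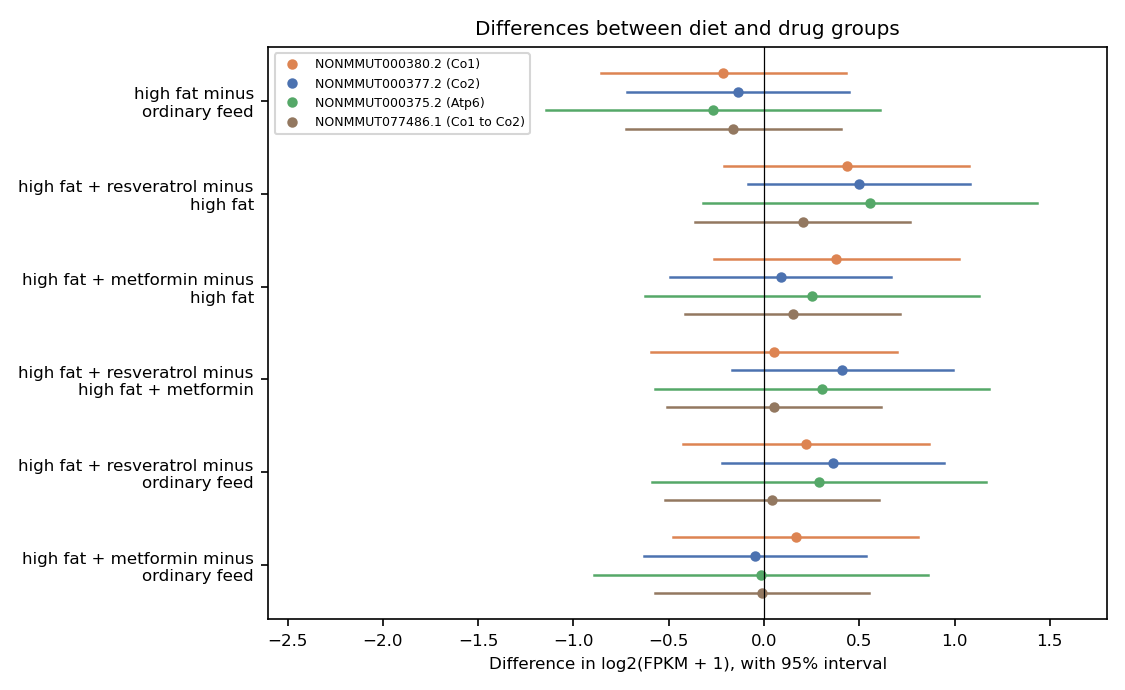
Points are differences in log2(FPKM + 1) between groups for each of the 4 transcripts and lines their 95% intervals from limma, n = 4 libraries per group. Every interval spans 0, and the high values for resveratrol against high fat (0.43 to 0.56 for the short transcripts) were 0.052 to 0.18 without high-fat library 4.

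Summed over the 4 transcripts, the insertion held 641 to 2668 reads per library. As a description with no test, ordinary feed had 71.1 ± 15.2 RPM (reads scaled to the library total), high fat 65.5 ± 25.6, resveratrol 85.6 ± 22.8 and metformin 73.7 ± 12.5 (SD, n = 4 each). High-fat library 4 had 29.2 RPM and the other 15 had 52.1 to 116. When 7SL and ribosomal RNA reads were left out of the total, that library still had the lowest value, 583 RPM of the other listed reads against 733 to 1747. After median-ratio scaling it was again lowest, at 38.7 against 48.1 to 113.

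**Figure D4:**
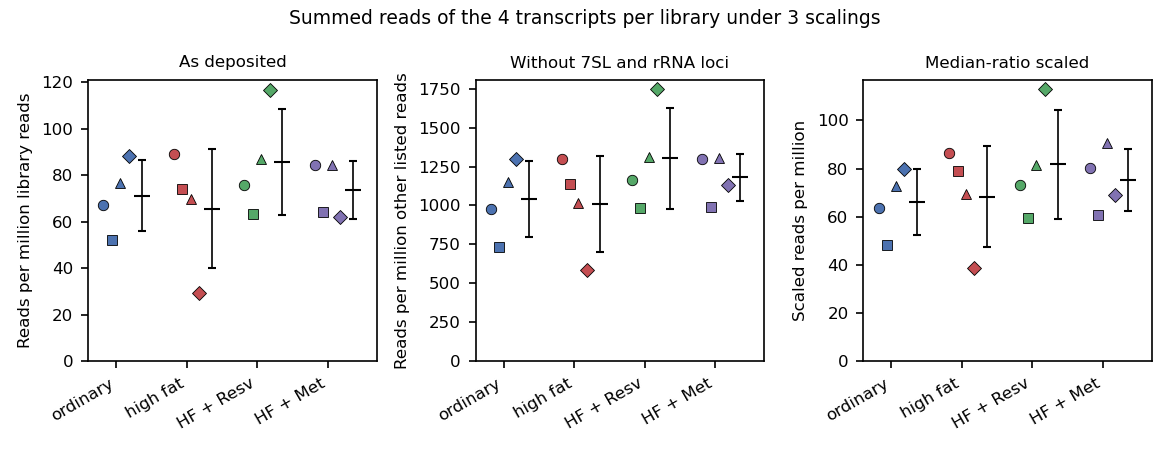
Summed reads of the 4 transcripts in each library, as RPM of the library, RPM of the listed reads without the 7SL and ribosomal RNA loci, and RPM after median-ratio scaling, with black bars for the mean ± SD of each group (n = 4). High-fat library 4 (red diamond) is the lowest point in all 3 panels, at 29.2, 583 and 38.7, and resveratrol library 4 the highest.

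Matching the annotated transcripts to the mitochondrial genes found a further abundant copy. Gm13340 (ENSMUST00000117219, chr2:22588103-22589647, minus strand) holds all 1545 bases of mt-Co1 with 37 differences (97.6% identity). Its longest run without a difference was 148 bases, and 3 runs reached 100 bases. Over the place of NONMMUT000380.2 (bases 1279 to 1541 of mt-Co1) it differed at 6 positions, G1293A, A1334C, C1344T, G1458A, T1464C and T1506C, with the mitochondrial base first. Its sequence there (chr2:22588107-22588369, minus strand) shows these in capitals, for comparison with NONMMUT000380.2 above, which has none of them.
Gm13340 at the same place: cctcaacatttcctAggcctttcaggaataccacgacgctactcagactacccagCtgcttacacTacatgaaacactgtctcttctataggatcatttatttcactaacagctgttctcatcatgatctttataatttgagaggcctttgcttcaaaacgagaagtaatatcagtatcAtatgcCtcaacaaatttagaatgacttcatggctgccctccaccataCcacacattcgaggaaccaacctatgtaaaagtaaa

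Gm13340 had a mean of 67.0 FPKM over the 16 libraries, between the levels of the short transcripts on chromosome 1. On ordinary feed libraries 1 to 4 had 67.8, 73.6, 66.6 and 82.7 FPKM, and on high fat 80.4, 60.6, 76.4 and 21.4. With resveratrol they had 60.02, 66.3, 76.6 and 82.3 FPKM and with metformin 79.6, 66.1, 71.1 and 40.6. High-fat library 4 was lowest by far and metformin library 4 next, and the groups overlapped. In no comparison did it pass (limma adjusted p between 0.392 and 0.986); high fat differed from ordinary feed by -0.44 (SE 0.34), and by -0.01 (SE 0.21) without high-fat library 4. Its level followed NONMMUT000380.2 with r = 0.74 and rho = 0.61 (adjusted permutation p = 0.0192 and 0.0217, n = 16), but r was 0.36 without ordinary-feed library 2 and high-fat library 4, and 0.24 when high-fat library 4 alone was left out. The other 3 transcripts followed Gm13340 with r = 0.88 (NONMMUT000377.2), 0.86 (NONMMUT000375.2) and 0.59 (NONMMUT077486.1), and with rho = 0.56, 0.65 and 0.79 (adjusted permutation p for r between 0.00123 and 0.0199, for rho between 0.00277 and 0.0312). Without high-fat library 4 their r was 0.67, 0.54 and 0.83. Without the 2 libraries farthest from the median of each it was 0.67, 0.48 and 0.49. Those were high-fat library 4 and resveratrol library 4 for the short ones, and metformin libraries 1 and 4 for the long one. After median-ratio scaling of all 16 libraries r with Gm13340 was 0.78 for NONMMUT000377.2, 0.80 for NONMMUT000375.2, 0.40 for NONMMUT077486.1 and 0.59 for NONMMUT000380.2. For NONMMUT077486.1 it was 0.80 when high-fat library 4 was also left out, and for NONMMUT000380.2 0.23.

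Neighbouring copies on chromosome 2 were low: Gm13339 (mt-Nd2) had a mean of 0.907 FPKM and Gm13341 (mt-Co2) 0.586. The remaining listed transcripts with a match to mitochondrial genes had means of at most 0.219 FPKM. The transcripts of high level among copies were thus Gm13340 and the 3 short ones on chromosome 1, and the last 3 matched the mitochondrial genome in every compared base. Within 100 kb of the insertion, 3 further listed transcripts, looked up after the values were seen, had means of 0.105 to 0.830 FPKM.

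**Figure D5:**
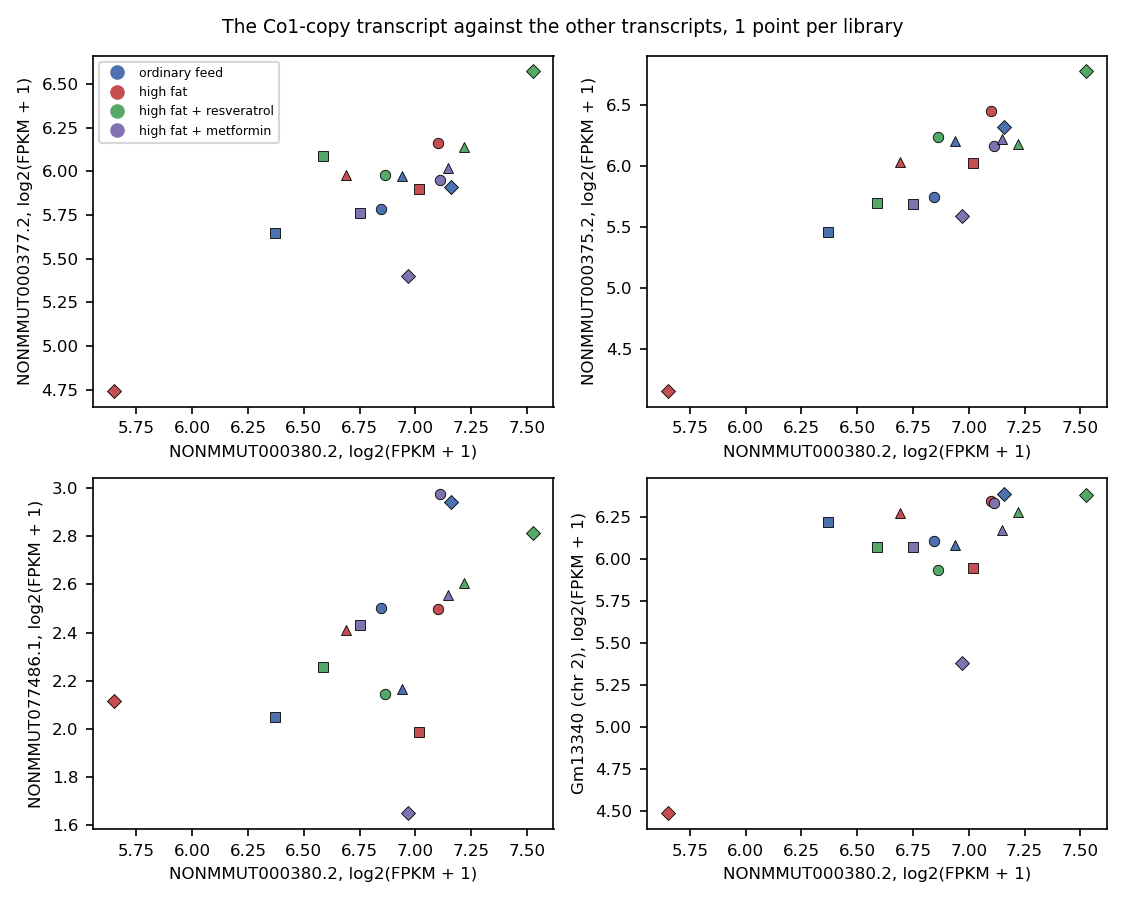
Each point is a library; the horizontal axis is NONMMUT000380.2 and the vertical axes the other 3 transcripts and Gm13340, all as log2(FPKM + 1), with colours for groups and shapes for libraries 1 to 4. High-fat library 4 (red diamond) lies apart at the left end of every panel. On the vertical axis it is also the lowest for NONMMUT000377.2, NONMMUT000375.2 and Gm13340, where r was 0.83, 0.93 and 0.74, and not for NONMMUT077486.1 (r = 0.48).

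Among the 7451 tested transcripts outside the insertion, the 5 most like NONMMUT000380.2 by Spearman rho over 16 libraries were NONMMUT143322.1 (0.85), NONMMUT066884.2 (0.84), Gm37824 (0.82), NONMMUT150346.1 (0.80) and NONMMUT031089.2 (0.79). The median of all 7451 was 0.06. The lowest were NONMMUT134086.1 (-0.75) and NONMMUT150829.1 (-0.74). On the same measure NONMMUT000375.2 would stand at rank 12, NONMMUT077486.1 at 85 and NONMMUT000377.2 at 225, and Gm13340 stood at 127. By rho, likeness across these libraries was therefore not highest for the transcripts of the same insertion. By Pearson r with NONMMUT000380.2, NONMMUT000375.2 had 0.93, NONMMUT000377.2 0.83 and NONMMUT077486.1 0.48. The 5 most alike, picked by rho, had r of 0.58 to 0.90. After median-ratio scaling the rho of NONMMUT143322.1 was 0.53, and the other 4 had 0.75 to 0.83.

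Nuclear genes on a list for mitochondrial RNA were followed through listed non-coding transcripts linked to them by position, since coding genes are not listed. Besides genes that make, process or decay mitochondrial RNA, the list holds others, such as the regulators Ppargc1b, Nrf1 and Gabpb1 and the protease gene Lonp1. Of the 40 genes on the list 21 had a linked transcript and 9 of these were tested. Between high fat and ordinary feed 2 of 9 fell and 0 rose, where 11.8% of all tested transcripts fell and 2.82% rose, and their median difference was -0.13 against -0.16 for all tested transcripts. The transcript overlapping Lrpprc, whose protein stabilises mitochondrial messengers (NONMMUT030921.2, chr17:84784792-84788622), fell on high fat, with 2.52 ± 0.291 FPKM on ordinary feed and 1.65 ± 0.287 on high fat (-0.41, SE 0.11, limma adjusted p = 0.0218). The transcript beside Tbrg4, a gene of the FASTK family of mitochondrial RNA-binding proteins (NONMMUT008521.2), fell likewise, with 1.91 ± 0.339 FPKM on ordinary feed and 1.16 ± 0.305 on high fat (-0.43, SE 0.13, limma adjusted p = 0.0361).

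Both calls were lost under median-ratio scaling (limma adjusted p = 0.189 and 0.0815), quantile normalization (0.266 and 0.125), no filter (0.112 and 0.154) and fits of 2 groups at a time (0.0760 and 0.0979). Without high-fat library 4 the Lrpprc transcript was still called (limma adjusted p = 0.0166) and the Tbrg4 one was not (0.0936). Leaving out ordinary-feed library 2, 3 or 4, or the third of high fat, also ended the Lrpprc call (0.0513 to 0.0554), and leaving out ordinary-feed library 1, 2 or 3, or the third of high fat, that of Tbrg4 (0.0528 to 0.0901). Tested without passing were transcripts at Fastkd5, Ppargc1b, Nrf1, Gabpb1, Mtpap and Lonp1 and the RNA Rmrp, the RNA of RNase MRP, which was listed itself at a mean of 4132 FPKM (-0.07, SE 0.10, limma adjusted p = 0.642). In the other 5 comparisons limma called 0 of the 9.

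The liver label could hardly be checked, because the hepatocyte markers are coding genes. Of 6 such markers 2 had a linked transcript, at Apoa1 with 1.27 FPKM and at Ttr with 0.0989. Linked transcripts of other cell types were at or below 0.793 FPKM: 3 of 4 Kupffer markers, 4 of 4 stellate, 1 of 4 endothelial, 1 of 4 cholangiocyte and 2 of 3 lymphocyte. Of all these, the transcripts at Apoa1 and Reln were tested and neither passed in any comparison. Of 3 non-coding RNAs listed for liver, Gm15441 was tested and fell on high fat (-2.31, SE 0.47, limma adjusted p = 0.00914), and in metformin against ordinary feed (-2.55, SE 0.47, limma adjusted p = 0.0461). The first call held under each alternative fitted per transcript, including the fit without high-fat library 4 (limma adjusted p = 0.0239), and the second was lost without a filter (0.127), with 2 groups at a time (0.0793) and without ordinary-feed library 1, 3 or 4 or metformin library 1, 2 or 4 (0.0544 to 0.0932). Of the others, Meg3 and the transcript at H19 had means of 0.124 and 0.0288 FPKM.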

How the data were processed

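RNA of 16 liver samples, 4 in each of 4 groups, was prepared with Trizol and a TruSeq kit, per the labels' protocols. The authors deposited 1 file per library with FPKM for 51024 transcripts (44554 NONCODE, 6326 Ensembl, 144 assembled). Tools were Bowtie 0.12.2 and Cufflinks 2.1.1 with GRCm38, per the submitters' processing notes. Which annotation release and filters applied, and whether strand was used, was not stated, so reads of overlapping genes on either strand cannot be told apart.

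The test was limma 3.58.1 in R 4.3.3 (trend option) on log2(FPKM + 1) for the 7455 transcripts that reached 1 FPKM in 4 or more libraries, all 4 studied ones included. A single fit held the 16 libraries and left 12 residual degrees of freedom. Benjamini-Hochberg adjustment ran over all 7455, and calls needed an adjusted p under 0.05. The log2 scale understates changes of low transcripts. Replicates were numbered in accession order; the labels do not say that they came from separate animals, so p-values measure only the spread between these samples, which may be technical. The fit was tested on simulated reads, drawn with a fixed dispersion around means common to all libraries, with some transcripts changed on high fat. No simulated library stood apart as high-fat library 4 does, so that test cannot show how the fit behaves with such a library. Reads were computed as FPKM times length over the step of each library. Correlations used 100000 two-sided permutations with adjustment over 10 relations.

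No genome sequence was used: chromosome 1 bases came from the single-exon pseudogene transcripts of GENCODE M21, aligned with Biopython 1.88, and copies elsewhere were sought with blastn 2.17.0 among annotated transcripts. Linked transcripts are the named RNA itself, overlap the gene or lie within 5 kb with no coding gene overlapped; the transcript of highest mean FPKM stood for the gene. Named beyond the 4 were listed matches to mitochondrial genes, the 5 most and 2 least alike transcripts, called linked transcripts and marker transcripts. The transcripts and lists were chosen with earlier results of these data known. Alternatives were pseudocount 0.1, no filter, median-ratio scaling, quantile normalization, 2 groups at a time, Ensembl transcripts summed per gene, each library left out and, chosen after seeing the data, median-ratio scaling without high-fat library 4.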

Additional observations from a re-analysis of the deposited data

How the results depend on the processing

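No paired analysis was possible because the labels give no replicate numbers. None of the 4 transcripts was called by limma in any of the 6 comparisons under any alternative; over 348 refits the lowest adjusted p was 0.226. Their differences, none of them called, changed sign in 43 of these. Under median-ratio scaling high fat minus ordinary feed became 0.075 for NONMMUT000377.2 and 0.010 for NONMMUT077486.1. Metformin minus ordinary feed became 0.11 for NONMMUT000375.2, 0.081 for NONMMUT000377.2 and 0.091 for NONMMUT077486.1, and under quantile normalization 0.083, 0.064 and 0.11. Resveratrol minus metformin became -0.043 for NONMMUT000380.2 and -0.022 for NONMMUT077486.1 under the first, and -0.015 and -0.064 under the second. With median-ratio scaling and without high-fat library 4, chosen after seeing the data, high fat minus ordinary feed was 0.38 for NONMMUT000375.2, 0.32 for NONMMUT000377.2 and 0.25 for NONMMUT000380.2. Resveratrol minus high fat was then -0.046 for NONMMUT000375.2, and metformin minus high fat -0.24 for it and -0.22 for NONMMUT000377.2.

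With each library left out, high fat minus ordinary feed ran from -0.53 to 0.24 for NONMMUT000375.2, -0.29 to 0.18 for NONMMUT000377.2, -0.38 to 0.11 for NONMMUT000380.2 and -0.28 to 0.014 for NONMMUT077486.1. Metformin minus high fat ran from -0.25 to 0.51 for NONMMUT000375.2, -0.23 to 0.24 for NONMMUT000377.2 and -0.040 to 0.40 for NONMMUT077486.1. Metformin minus ordinary feed ran from -0.17 to 0.11, -0.13 to 0.080 and -0.20 to 0.24 for the same 3. Resveratrol minus high fat ran from 0.052 to 0.82 for NONMMUT000375.2, 0.18 to 0.65 for NONMMUT000377.2, 0.11 to 0.60 for NONMMUT000380.2 and 0.084 to 0.31 for NONMMUT077486.1. Resveratrol minus metformin ran from -0.11 to 0.21 for NONMMUT000380.2 and -0.20 to 0.24 for NONMMUT077486.1, and resveratrol minus ordinary feed from -0.080 to 0.22 for NONMMUT077486.1.

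The summed level on high fat was 0.922 times that on ordinary feed, 1.03 with median-ratio scaling, and 0.811 to 1.09 with each library left out. All ratios moved by less than 1 SD of the ratio, taken from the spread between libraries. Leaving out 1 of 4 libraries can hardly move a group mean further than that, so this does not show that the ratios are stable. Over all tested transcripts, calls between high fat and ordinary feed numbered 1087 (80.7% lower), 423 with 2 groups at a time, 270 with no filter, 850 (55.5% lower) with median-ratio scaling, 725 (53.0% lower) with quantile normalization and 543 to 1170 with each library left out (543 without ordinary-feed library 2, 579 without 3, 612 without high-fat library 4, 69.4% of these lower). With median-ratio scaling and without high-fat library 4 there were 567 calls. Of these 41.4% were lower, so higher calls were then the majority. Median-ratio scaling moved the median difference of all transcripts from -0.16 to -0.04. Calls for metformin and ordinary feed went from 22 to 53 and 61 under those scalings, to 12 with 2 groups at a time, 7 with no filter and 14 with pseudocount 0.1. For resveratrol and high fat they went from 6 to 16 and 13, and 2 with no filter, and for metformin and high fat from 2 to 7 and 7, and 4 with no filter. For resveratrol and ordinary feed they went from 21 to 2 with no filter and 13 with pseudocount 0.1, and between the drugs from 0 to 1 with 2 groups at a time and 2 with no filter. With 1 of the libraries left out the counts ran from 2 to 39, 1 to 40, 1 to 9, 1 to 20 and 0 to 1 in the same order. The causes were not tested, and depth limits NONMMUT077486.1 most, with at most 221 reads in a library.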
